A study of Mus musculus with 847 samples.

Results

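The 10 genes described here encode the classical MHC class I pathway: the light chain B2m, the heavy chains H2-D1 and H2-K1, the peptide transporter subunits Tap1 and Tap2, the loading factor Tapbp, the immunoproteasome subunits Psmb8, Psmb9 and Psmb10, and the activator Nlrc5. They were chosen by name from the 21076 genes of a single table of read counts, and all 10 were in it. Bulk mRNA was sequenced from 15 dissected brain regions of 59 C57BL/6JN mice, with 1 library for each region and mouse and 847 libraries in all. The question the design addresses is how expression in each region changes over the adult life of the mouse. Mice of both sexes were 3, 12, 15, 18 or 21 months old, with 5 females at each of these ages and 5 males (6 males at 21 months). The 5 mice of 26 months and the 3 mice of 28 months were all male. All groups share the strain, and the labels name no transgene, treatment or pooling. Each library comes from 1 animal, so animals are the replicates. A group of 1 region, sex and age held 2 to 6 libraries.

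Class I molecules present short peptides from a cell's own proteins to CD8 T cells. The proteasome makes the peptides, the Tap1 and Tap2 transporter carries them into the endoplasmic reticulum, and Tapbp (tapasin) holds empty class I molecules beside the transporter until a peptide binds. B2m is the invariant light chain without which the heavy chains do not reach the cell surface. Interferons raise most of these genes: Psmb8, Psmb9 and Psmb10 then replace the constitutive catalytic subunits Psmb5, Psmb6 and Psmb7, and Nlrc5 acts at the promoters of class I genes. In the brain, class I is low in most neurons and higher in microglia and endothelium, and it has also been linked to synapse remodelling.

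Of these genes, 7 lie in the MHC region of chromosome 17 and 3 do not. In the GENCODE M21 annotation of GRCm38, the chromosome 17 genes are Tapbp at chr17:33915899-33929292, H2-K1 at chr17:33996017-34000347, Psmb9 at chr17:34181987-34187764, Tap1 at chr17:34187553-34197225, Psmb8 at chr17:34197721-34201454, Tap2 at chr17:34203527-34216321 and H2-D1 at chr17:35262730-35267499. B2m lies at chr2:122147686-122153083, Nlrc5 at chr8:94434356-94527272 and Psmb10 at chr8:105935735-105938444. H2-K1, Psmb9 and Psmb10 are read from the minus strand and the other 7 from the plus strand. Psmb9 and Tap1 start head to head and share 212 exonic bases on opposite strands, and the libraries were unstranded, so reads from those bases cannot be told apart. Annotated antisense RNAs share 904 exonic bases with Tapbp, 533 with Tap2 and 498 with Psmb8. The share of 50-base exon windows also found in another gene was 13.9% for H2-D1, 6.87% for H2-K1, 22.4% for Tapbp, 12.1% for Tap2, and 0% for B2m, Psmb10 and Nlrc5. Counts of H2-D1 and H2-K1 may therefore include or lose reads of other class I genes.

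The promoters of the 3 chain genes are printed because these genes moved together in most regions (values below) although B2m lies on another chromosome. Each line gives the 190 bases before the RefSeq start site on GRCm38.p6, 5′ to 3′ on the gene's strand, at chr17:34000348-34000537 for H2-K1, chr17:35262904-35263093 for H2-D1 and chr2:122147497-122147686 for B2m. The RefSeq start of H2-D1 lies inside the GENCODE span.
H2-K1: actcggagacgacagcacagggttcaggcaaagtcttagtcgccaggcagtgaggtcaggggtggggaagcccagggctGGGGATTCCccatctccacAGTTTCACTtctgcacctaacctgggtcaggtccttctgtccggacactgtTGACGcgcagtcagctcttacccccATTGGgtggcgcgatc
H2-D1: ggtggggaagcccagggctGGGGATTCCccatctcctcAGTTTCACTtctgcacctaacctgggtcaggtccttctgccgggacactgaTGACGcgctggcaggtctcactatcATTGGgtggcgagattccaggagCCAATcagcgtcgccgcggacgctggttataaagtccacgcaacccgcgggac
B2m: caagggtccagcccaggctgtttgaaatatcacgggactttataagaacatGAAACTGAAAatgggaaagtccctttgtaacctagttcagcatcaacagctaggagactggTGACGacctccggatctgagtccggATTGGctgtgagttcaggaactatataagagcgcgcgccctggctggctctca
Capitals mark matches to 5 motifs that were chosen after these sequences were read. GGGGATTCC, the NF-kappaB site of class I genes, and AGTTTCACT, their interferon element, are in the H2-K1 and H2-D1 windows. GAAANNGAAA, the core of the interferon-stimulated response element, is in the B2m window. All 3 windows hold TGACG, the core of the cyclic AMP response element, and ATTGG, the Y box, which in H2-D1 is also on the other strand as CCAAT. The marked matches do not overlap. Of 32851 RefSeq windows of 300 bases, searched on both strands, 0.250% hold GGGGATTCC, 0.301% hold AGTTTCACT, 3.44% hold GAAANNGAAA, 20.8% hold TGACG and 37.4% hold ATTGG. Windows were found for 8 of the 10 genes. ATTGG was in those of B2m, H2-D1, H2-K1, Psmb9, Tap1 and Tapbp. A match is a description of the letters and does not show that a factor binds there.

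The libraries held 481444 to 26756735 reads, with a median of 6716032, and 10 had fewer than 1000000. Each region had 51 to 59 libraries. The expression profile of 13 libraries was nearest that of a region other than the labelled one. In all, 7 libraries stood apart and are named here: 4 by granulocyte genes (cerebellum of mice 25 and 40, olfactory bulb of mouse 11, visual cortex of mouse 48), 1 by region (entorhinal cortex of mouse 52, nearest medulla) and 2 by genes of the other sex (posterior hippocampus of mouse 38, subventricular zone of mouse 3). Without these 7, the main count of the age comparison was again 104. Choroid plexus libraries of 3 months held 1896 to 6864 CPM (counts scaled to the library total, as counts per 1000000 reads) of 8 epithelial markers such as Ttr. The same libraries held 4984 to 6556 CPM of 7 neuronal markers, against a median of 5113 CPM in corpus callosum, and 4930 to 24427 CPM of 6 oligodendrocyte markers. Markers of other brain tissue are thus high in the libraries labelled choroid plexus, and their part in results of that region was not tested. Single libraries of other regions also held them, up to 15299 CPM in corpus callosum. No 2 libraries were identical.

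Per length, B2m was the most abundant of the 10, with a median over libraries of 140 RPKM (CPM divided by the exon length in kilobases). H2-D1 had 40.9 RPKM, Psmb10 17.0, H2-K1 14.4 and Tapbp 10.7. The transporter subunits were unequal, with 2.87 RPKM for Tap2 and 0.759 for Tap1. Psmb8 had 2.30 RPKM and Psmb9 0.681, both below Psmb10. The exon length counts every base annotated as exon in any transcript, 3381 for Psmb8 and 1705 for Psmb10, and the order depends on it. In CPM the medians were 42.4 for H2-K1, 39.0 for Tapbp and 29.0 for Psmb10, so Psmb10 was then below both. They were 10.8 CPM for Tap2, 4.16 for Tap1, 7.79 for Psmb8 and 2.49 for Psmb9. Nlrc5 was lowest at 0.101 RPKM, and its median was 6 reads per library, so single values of Nlrc5 are coarse. It was at 0 in 60 libraries, Psmb9 in 10 and Tap1 in 5, and the other 7 genes in none. All 10 passed the low-count filter in every region in the fits over all ages. In the comparisons of the sexes, which end at 21 months, Nlrc5 did not pass it in caudate putamen, thalamus and visual cortex.

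Regions differed in the level of these genes. To compare regions within an animal, each region's log2 CPM (prior count 2) was set against the mean of the other 14 regions in the same mouse, in the 37 mice with all 15 regions. By a 2-sided permutation test of 100000 sign changes, adjusted over 150 gene and region pairs, 121 pairs differed (80.7%). By the same test 83% of the pairs of 11982 genes differed, adjusted over all of those pairs, a share near that of the 10. Pons was above the other regions for all 10 genes (44.7% of all genes were), olfactory bulb for 9 (43.5%) and medulla for 8 (44.8%). Thalamus was below for 9 (43.1%), and motor cortex (43.7%) and posterior hippocampus (40.4%) for 8 each.

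The classical heavy chain H2-D1 stood out in the cerebellum. Its 10 cerebellar libraries of 3 months ran from 226 to 307 CPM with a median of 264, while entorhinal cortex, the lowest region, averaged 48.8 CPM, a 5.43-fold difference. Within mice, cerebellar H2-D1 was 1.61 log2 above the other regions (SD 0.24, n = 37), and it was above in 37 of 37 mice (adjusted permutation p = 2.17e-05). The other heavy chain, H2-K1, was 0.18 above and B2m 0.16 above in the same tissue. H2-D1 was also 0.90 log2 above the other regions in medulla and 0.78 in pons.

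Psmb10, the inducible trypsin-like subunit, had a regional order of its own. It was 0.64 log2 above the other regions in motor cortex and 0.51 in visual cortex, where Psmb8 was 0.44 and 0.41 below. It was 1.20 below in caudate putamen and 0.68 below in cerebellum. At 3 months its mean was 39.7 ± 1.82 CPM (SD, n = 10) in motor cortex and 11.5 ± 2.80 CPM (SD, n = 9) in caudate putamen. At that age olfactory bulb was the highest region for 7 of the genes (B2m, H2-K1, Tap1, Tap2, Psmb8, Psmb9 and Nlrc5), and without its library of mouse 33, which raised its mean, it was still the highest for these 7. For B2m it was then 132 ± 18.3 CPM (SD, n = 9), against 122 ± 4.27 CPM (SD, n = 10) in motor cortex, the next region. Of the 14 pairs of neighbouring regions in that order, 3 were apart by more than their SD for H2-D1 and Psmb10, 2 for B2m, 1 for Tapbp and 0 for the other 6 genes.

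**Figure D1:**
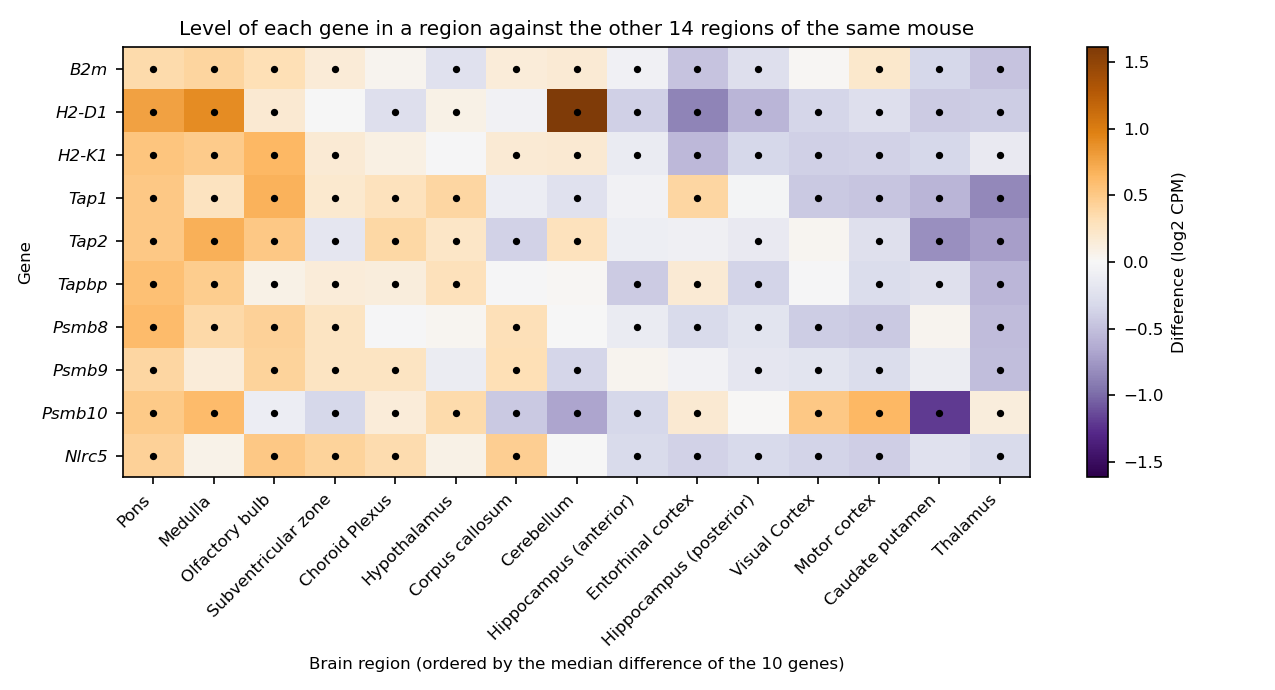
Level of each gene (vertical axis) in each region (horizontal axis) against the other 14 regions of the same mouse, as the mean log2 CPM difference over 37 mice; dots mark an adjusted permutation p under 0.05. H2-D1 in cerebellum (1.61) and Psmb10 in caudate putamen (-1.20) are the extremes.

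Expression rose with age in most regions. The slope on age in months, beside sex, was fitted over all genes of a region with edgeR's quasi-likelihood test, with Benjamini-Hochberg adjustment within the region and a threshold of 0.05. Of 150 gene and region pairs, 104 rose and 0 fell, and the median slope was 0.0333 log2 per month. Over all genes, 6.37% of 214677 pairs rose and 5.10% fell, with a median slope of -0.000122. B2m, H2-D1, H2-K1 and Psmb8 rose in 13 regions each, Psmb9 in 12, Tap1 and Tap2 in 11, Nlrc5 in 9, Tapbp in 8 and Psmb10 in 1. In bulk tissue, more cells of a type and more RNA per cell cannot be told apart.

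All 10 genes rose in cerebellum, where 10.5% of all genes tested rose. Of the 10, 9 rose in choroid plexus (11.5% of all genes), corpus callosum (9.64%), pons (4.62%) and subventricular zone (4.85%). In caudate putamen 8 rose (7.68%), as did 8 in posterior hippocampus (4.53%), hypothalamus (4.13%), medulla (6.56%), motor cortex (8.39%) and visual cortex (5.8%). Anterior hippocampus had 6 (6.89%) and thalamus 4 (2.78%). None rose in entorhinal cortex, where only 0.186% of all genes did, or in olfactory bulb, where 7.78% did.

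**Figure D2:**
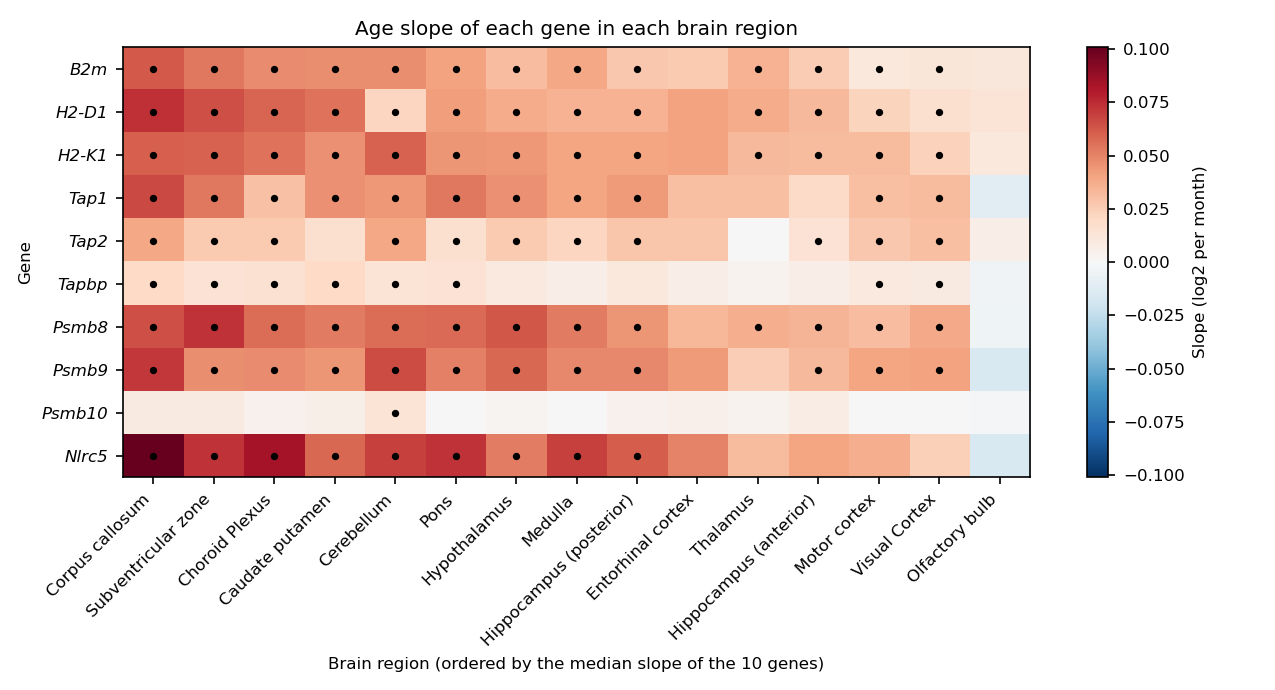
Age slope (colour, log2 per month) of each gene (vertical axis) in each region (horizontal axis, ordered by the median slope of the 10 genes); dots mark an adjusted p under 0.05. Corpus callosum has the steepest colours, with 0.101 for Nlrc5, and the row of Psmb10 is nearly white, with 1 dot.

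The class I chains had their steepest slopes in corpus callosum, the large white matter tract between the hemispheres. B2m there ran from 66.2 to 129 CPM in 10 libraries of 3 months (median 85.0) and from 105 to 249 CPM in 11 libraries of 21 months (median 174). The 4 libraries of 26 months had 195, 196, 241 and 276 CPM, and the 3 of 28 months had 228, 285 and 368 CPM. Every library of 26 and 28 months was above every library of 3 months, while those of 21 months overlapped them. The slope was 0.062 log2 per month (SE 0.0062, adjusted p = 8.09e-12), and the mean of 28 months was 3.30 times that of 3 months.

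H2-D1 and H2-K1 rose in the same tissue. In corpus callosum H2-D1 ran from 48.1 to 105 CPM at 3 months (median 65.4, n = 10) and was 211, 213, 245 and 268 CPM at 26 months and 200, 259 and 359 CPM at 28 months. No library of these 2 oldest ages overlapped those of 3 months, and the slope was 0.074 (SE 0.0066, adjusted p = 1.51e-13). H2-K1 ran from 24.2 to 46.1 CPM at 3 months (median 31.4) and was 76.5, 98.0 and 127 CPM at 28 months, a slope of 0.0603 (SE 0.0064, adjusted p = 4.91e-11). Caudate putamen and subventricular zone followed: the mean of 28 months was 3.04 and 2.96 times that of 3 months for H2-D1, and 2.67 and 2.52 times for B2m.

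In motor and visual cortex the chains rose with slopes below those of corpus callosum, and that pair by pair difference was not tested. The entorhinal slopes, given further on, were above those of motor and visual cortex but did not pass the test. B2m in motor cortex ran from 115 to 128 CPM at 3 months (median 122, n = 10) and from 121 to 166 CPM at 21 months (median 138, n = 11). The 3 libraries of 28 months had 128, 133 and 151 CPM, so the groups overlap. The slope was 0.0108 (SE 0.0022, adjusted p = 0.000297) and the ratio of means of 28 to 3 months was 1.13. H2-D1 had a slope of 0.0221 and H2-K1 of 0.0317 in the same region. In visual cortex the slopes were 0.012 for B2m, 0.0164 for H2-D1 and 0.0229 for H2-K1.

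In medulla and pons B2m and H2-D1 were higher in every library of 21 and 28 months than in every library of 3 months. H2-D1 in medulla ran from 127 to 167 CPM at 3 months (median 143, n = 10) and from 189 to 249 CPM at 21 months (median 218, n = 11), and was 252, 255 and 260 CPM at 28 months. Those groups do not overlap, and the slope was 0.0349 (SE 0.0022, adjusted p = 6.9e-20). In pons H2-D1 ran from 110 to 137 CPM at 3 months (median 130, n = 9) and from 182 to 274 CPM at 21 months (median 214, n = 11), and was 235, 242 and 287 CPM at 28 months (slope 0.0421, SE 0.0033, adjusted p = 4.41e-15). B2m in medulla ran from 85.6 to 120 CPM at 3 months (n = 10) and was 159, 197 and 197 CPM at 28 months (slope 0.0394, SE 0.0034, adjusted p = 3.92e-14). The hippocampus was intermediate, with ratios of means of 28 to 3 months for B2m of 1.52 in its anterior and 1.46 in its posterior part.

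In the cerebellum H2-D1 is high from the start. Its slope there was 0.0215 (SE 0.0028, adjusted p = 2.89e-08), and its mean went from 265 ± 23.6 CPM (SD, n = 10) at 3 months to 382 ± 27.8 CPM (SD, n = 3) at 28 months. H2-K1 had a cerebellar slope of 0.0596 (SE 0.0053, adjusted p = 1.18e-13), from 29.3 ± 3.87 CPM (SD, n = 10) to 75.0 ± 15.8 CPM (SD, n = 3). In CPM the mean of H2-D1 was higher by more than that of H2-K1, but its ratio was 1.44 against 2.56. The difference between the 2 slopes was not tested.

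**Figure D3:**
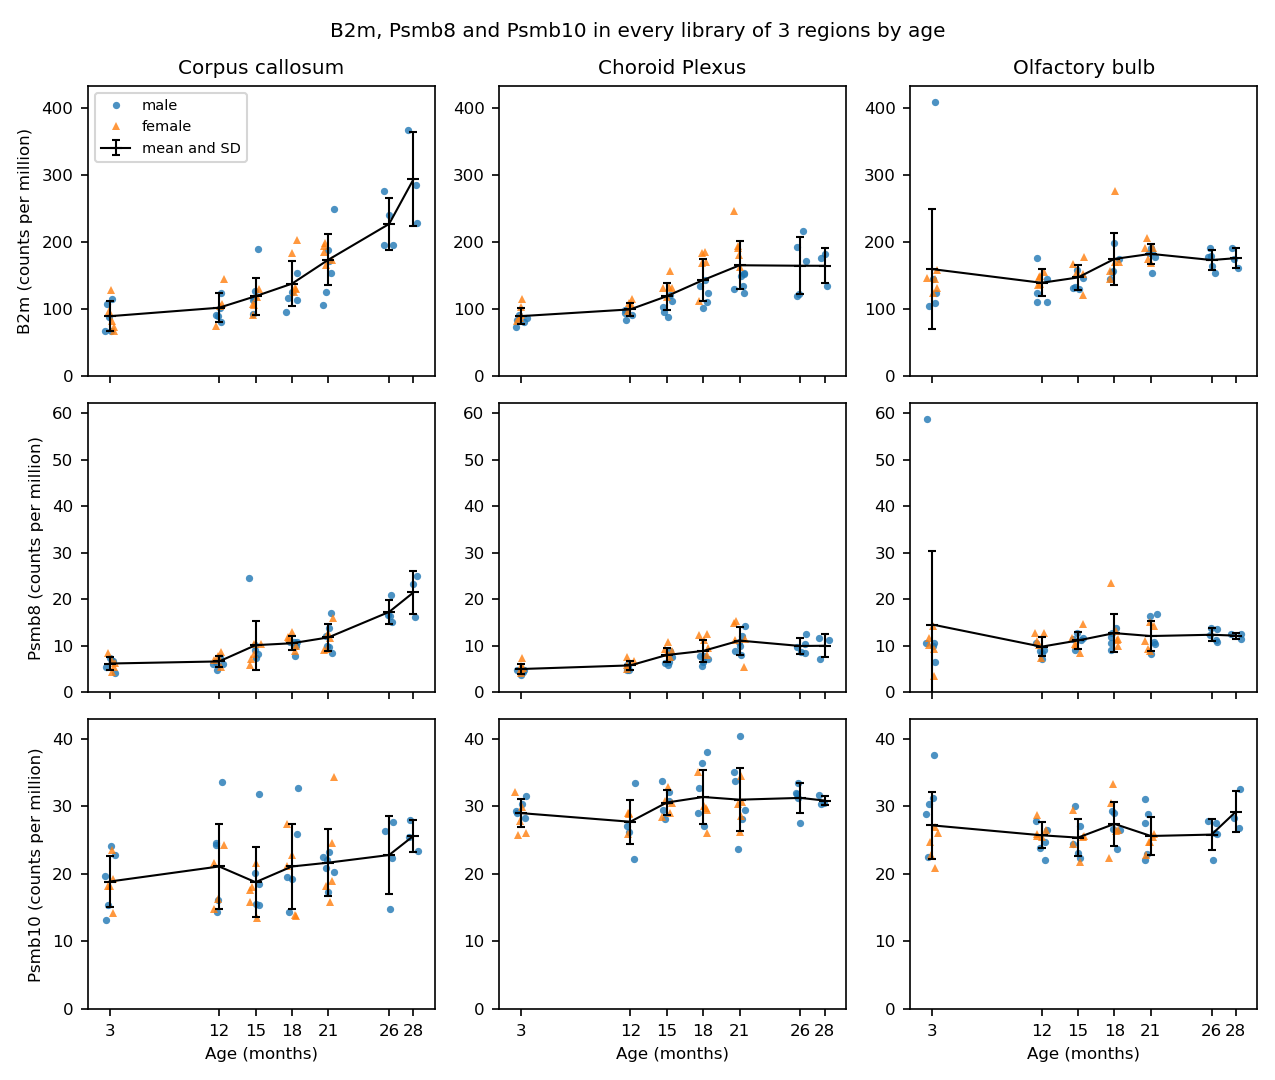
CPM of B2m, Psmb8 and Psmb10 (vertical axes) against age in months in every library of corpus callosum, choroid plexus and olfactory bulb; circles are males, triangles females, bars the mean and SD. B2m and Psmb8 are higher in old corpus callosum and choroid plexus, where the slope of Psmb10 did not pass the test. In corpus callosum the mean of Psmb10 was 18.9 CPM at 3 months and 25.6 CPM at 28 months. In olfactory bulb 1 library of 3 months is far above the rest (B2m 409 CPM).

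Peptide loading genes rose to different degrees. Tap1 in corpus callosum ran from 0.592 to 4.81 CPM at 3 months (median 2.48, n = 10) and was 6.87, 10.2 and 13.2 CPM at 28 months, with no overlap (slope 0.0669, SE 0.011, adjusted p = 6.22e-06). Its partner Tap2 ran from 4.08 to 10.9 CPM at 3 months (median 5.32) and was 12.2, 13.6 and 18.1 CPM at 28 months (slope 0.0387, SE 0.0073, adjusted p = 5.9e-05). The 2 subunits form 1 transporter, yet their median slopes over regions were 0.0398 for Tap1 and 0.0264 for Tap2. In visual cortex Tap2 went from between 5.80 and 8.43 CPM at 3 months (n = 10) to between 10.0 and 15.9 CPM at 21 months (n = 11), and these groups do not overlap (slope 0.0307, adjusted p = 4.18e-08). In thalamus the slope of Tap2 was 0.000498 (SE 0.0068, adjusted p = 0.987).

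Tapbp had the second smallest changes of the 10. It rose in 8 regions, with a median slope over regions of 0.0101 log2 per month and a highest slope of 0.0203 (SE 0.0058, adjusted p = 0.00851) in corpus callosum. There it ran from 25.8 to 49.7 CPM at 3 months (median 32.2, n = 10) and was 53.3, 59.8 and 62.8 CPM at 28 months. In cerebellum Tapbp of 21 months (37.7 to 49.4 CPM) was above all 10 libraries of 3 months (31.1 to 37.0 CPM).

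Of the immunoproteasome subunits, Psmb8 and Psmb9 rose and Psmb10 mostly did not. Psmb8, the inducible chymotrypsin-like subunit, ran from 4.19 to 8.53 CPM in corpus callosum at 3 months (median 6.49, n = 10). It was 15.2, 16.4, 16.6 and 20.9 CPM at 26 months and 16.2, 23.2 and 25.1 CPM at 28 months, all above the libraries of 3 months (slope 0.0648, SE 0.0076, adjusted p = 1.39e-09). In hypothalamus it ran from 2.76 to 8.17 CPM at 3 months (median 4.19, n = 9) and from 6.90 to 21.3 CPM at 21 months (median 10.5, n = 11), and the 2 libraries of 28 months had 14.4 and 31.4 CPM. That is a slope of 0.0629 (SE 0.0096, adjusted p = 5.7e-06), with 28 months resting on 2 animals that differ from each other. In medulla, Psmb8 of 21 months (9.94 to 19.0 CPM, n = 11) did not overlap that of 3 months (4.13 to 7.60 CPM, n = 10).

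Psmb9, which replaces the caspase-like subunit Psmb6, is the less abundant. In corpus callosum it ran from 1.01 to 2.32 CPM at 3 months (median 1.74, n = 10) and was 4.31, 6.63 and 6.75 CPM at 28 months (slope 0.0715, SE 0.0091, adjusted p = 1.24e-08). Psmb10 in the same tissue ran from 13.2 to 24.1 CPM at 3 months (median 18.7) and was 23.3, 25.5 and 28.0 CPM at 28 months, and the groups overlap (slope 0.00938, SE 0.0065, adjusted p = 0.332). In motor cortex Psmb10 averaged 39.7 ± 1.82 CPM (SD, n = 10) at 3 months and 39.6 ± 2.19 CPM (SD, n = 3) at 28 months. Its 1 rise was in cerebellum (slope 0.0134, SE 0.0036, adjusted p = 0.00504), from 10.5 to 18.1 CPM (median 14.6) at 3 months to 14.5 to 22.1 CPM (median 20.2) at 21 months.

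Each inducible subunit was also set against the constitutive subunit it replaces, as a log2 ratio of CPM (prior count 2) within a library. The slope of each ratio on age beside sex was tested by permuting ages within sex (100000 permutations, 2-sided, adjusted over 45 ratio and region pairs). Psmb8 to Psmb5 rose in 14 of 15 regions (median slope 0.0570 per month), Psmb9 to Psmb6 in 13 (0.0413) and Psmb10 to Psmb7 in 4 (0.00698). None fell. In corpus callosum the log2 ratio of Psmb8 to Psmb5 was -4.19 ± 0.31 (SD, n = 10) at 3 months, -3.21 ± 0.35 (SD, n = 11) at 21 months and -2.39 ± 0.36 (SD, n = 3) at 28 months (adjusted permutation p = 2.81e-05). Psmb5 thus had more reads than Psmb8 at all 3 ages, by a margin that narrowed. The 4 regions in which Psmb10 to Psmb7 rose were cerebellum, posterior hippocampus, hypothalamus and subventricular zone, with slopes from 0.00752 to 0.0139. The ratio of Psmb8 to Psmb5 rose in entorhinal cortex too (slope 0.0372, adjusted permutation p = 0.00125), where the slope of none of the 10 genes alone passed the test over all genes. The ratios were adjusted over 45 pairs and the single genes over 14519 genes there, so these outcomes are not like for like.

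**Figure D4:**
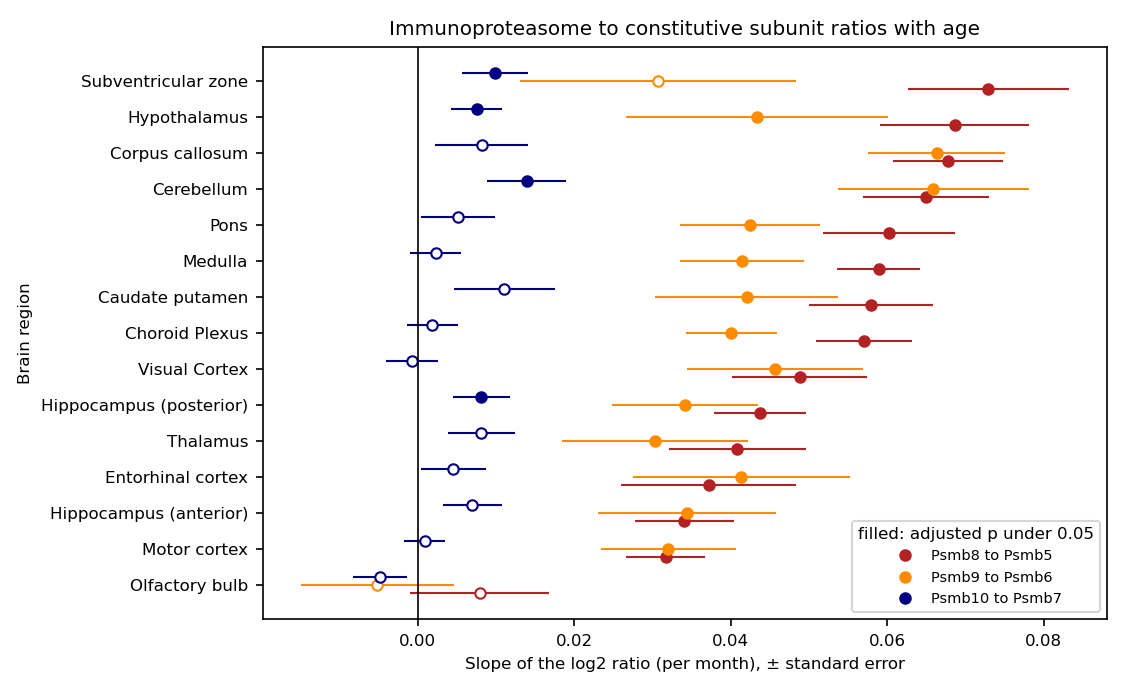
Slope of the log2 ratio per month, with its standard error (horizontal axis), of 3 inducible to constitutive subunit ratios in each region (vertical axis); filled points have an adjusted permutation p under 0.05. Psmb8 to Psmb5 is filled in 14 of 15 regions and Psmb10 to Psmb7 in 4, near 0.

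Nlrc5, the activator of class I genes, had the highest median slope over regions of the 10 (0.0582 log2 per month) and the fewest reads. In corpus callosum it ran from 0 to 0.854 CPM at 3 months (median 0.580, n = 10, 1 library at 0). At 26 months it was 2.28, 2.83, 3.39 and 4.52 CPM and at 28 months 2.56, 4.34 and 5.36 CPM, none of which overlap the 3-month values. The slope was 0.101 (SE 0.017, adjusted p = 4.34e-06) and the ratio of means of 28 to 3 months 8.23. In choroid plexus it ran from 0.229 to 1.25 CPM at 3 months (n = 10) and was 2.12, 2.54 and 2.64 CPM at 28 months (slope 0.0836, SE 0.011, adjusted p = 1.62e-08). In cerebellum 2 of the 5 libraries of 26 months had no Nlrc5 read while the other 3 had 1.36, 2.17 and 2.71 CPM.

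A single library decided whether any of the 10 genes passed in olfactory bulb. The olfactory bulb of mouse 33, a male of 3 months, had 409 CPM of B2m, while the other 9 bulbs of that age ran from 104 to 158 CPM (median 131). The same mouse had 71.9 to 115 CPM of B2m in its 12 other regions. Its bulb held 58.8 CPM of Psmb8, 5.78 times the median of the others, and 13.9 CPM of Nlrc5, 10.4 times their median, but 37.6 CPM of Psmb10, only 1.44 times. Its sum over 12 interferon response genes was 385 CPM against 76.4 to 226 CPM in the other 9 bulbs, and its sum over 12 microglia markers was 610 CPM against 464 to 541 CPM. Their part in the result was not tested.

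With every library, 0 of the 10 genes passed edgeR's test in olfactory bulb, 1 had an unadjusted p under 0.05, and DESeq2 also called 0. Each of its 58 libraries was then left out in turn, a choice made after the values were seen: 57 of these fits again called 0 genes, and the fit without mouse 33 called 5. Without it B2m had a slope of 0.0249 (SE 0.0036, adjusted p = 8.49e-07), H2-D1 0.0236 (adjusted p = 5.44e-06), H2-K1 0.0242 (adjusted p = 3.85e-05), Tap2 0.0145 (adjusted p = 0.00800) and Psmb8 0.0204 (adjusted p = 0.00888). Tap1, Tapbp, Psmb9, Psmb10 and Nlrc5 did not pass in that fit, in which 7.32% of all genes rose. The median slope of the 10 was then 0.0175, still below that of visual cortex (0.0234), the next lowest region. Of the subsets without mouse 33, females alone called 2 genes (B2m and H2-D1) and the males of mice 1 to 15 called 2 (H2-D1 and H2-K1), where 1.64% and 0.295% of all genes rose there. The slope of Psmb8 was -0.00397 with mouse 33 and so turned direction. The ratio of Psmb8 to Psmb5 passed without it as well (0.0202, adjusted permutation p = 0.00477), against 0.00792 (adjusted permutation p = 0.437) with it. Over the whole study, 109 of the 150 pairs rose without this library.

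For the slope on age, entorhinal cortex gave 0 calls by edgeR's test and by DESeq2, and 0 in every other setting that was run. Of the 10 genes, 8 had an unadjusted p under 0.05. With age as a factor, 1 of the 10 was above 3 months there at 26 months. The entorhinal slopes were 0.0261 for B2m (SE 0.0078, adjusted p = 0.153), 0.0402 for H2-D1 (SE 0.012, adjusted p = 0.162) and 0.041 for H2-K1 (SE 0.012, adjusted p = 0.145). The median slope of the 10 was 0.0322, against 0.0333 over the 150 pairs of these genes. Single libraries were far above the rest. H2-D1 of 21 months had a median of 62.2 CPM and a maximum of 229 CPM, in mouse 52, whose library is nearest medulla. At 18 months its median was 60.7 CPM and its maximum 242 CPM. The mean of H2-D1 was 48.8 CPM at 3 months and 57.0 CPM at 28 months. Oligodendrocyte marker sums ran from 496 to 22533 CPM at 21 months, and their part was not tested. B2m ran from 58.8 to 94.0 CPM at 3 months (n = 9) and from 71.1 to 178 CPM at 21 months (n = 11), and was 82.7, 89.3 and 96.1 CPM at 28 months, so the groups overlap.

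The slopes themselves differed between regions. In 1 fit over all regions, the 14 terms for region by age were tested together by edgeR's quasi-likelihood F test: 9 of the 10 genes passed, where 22.7% of 15069 genes did. F was 11.0 for B2m (adjusted p = 1.02e-20), 9.36 for H2-D1 (adjusted p = 4.98e-17), 6.77 for Psmb8 (adjusted p = 3.32e-11) and 5.46 for H2-K1 (adjusted p = 2.45e-08), and for Psmb10 1.49 (adjusted p = 0.237). Without the olfactory bulb 5 genes passed (B2m, H2-D1, H2-K1, Tap2 and Psmb8), where 18.1% of all genes did. Without the library of mouse 33 alone 8 passed, Tapbp no longer among them, where 23.1% of all genes did. With limma-voom 7 passed, against 12.9% of all genes.

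By age, the first differences were few. With age as a factor, 9 of the 150 pairs were above 3 months at 12 months (0.835% of all gene and region pairs), 30 at 15 months (0.734%), 61 at 18 months (1.75%) and 94 at 21 months (3.98%). At 26 months 80 were above (2.75%), and at 28 months 82 (3.69%), where fewer mice and only males were available. The mice of 12, 26 and 28 months are also in other blocks of mouse numbers than those of 3 months (described below). The median log2 difference of the 150 pairs was 0.19, 0.35, 0.50, 0.64, 0.68 and 0.74 at these ages. At 12 months the 9 pairs were 4 of H2-D1, 3 of Tap2, 1 of B2m and 1 of Psmb8. Only 1 pair was below 3 months at any age, Tapbp in olfactory bulb at 12 months (log2 difference -0.28, SE 0.071, adjusted p = 0.0106), where mouse 33 is among the 3-month libraries. With males alone the counts were 1, 7, 15 and 43 at 12, 15, 18 and 21 months. The share over all genes in that fit is not given here, so these counts are not compared with it.

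**Figure D5:**
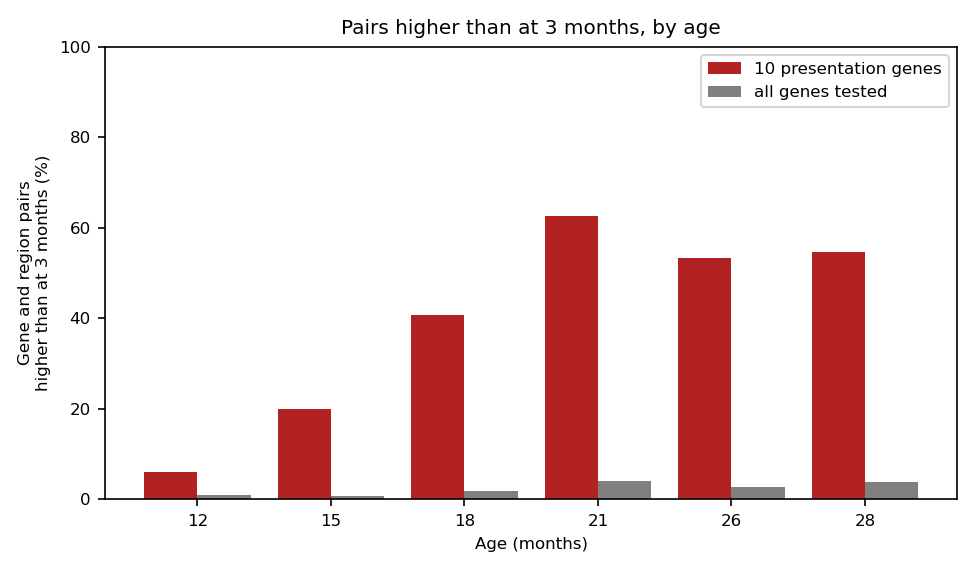
Percent of gene and region pairs above 3 months (vertical axis, adjusted p under 0.05) at each later age in months (horizontal axis), for the 10 presentation genes and for all genes tested. The bars of the 10 genes correspond to 9, 30, 61, 94, 80 and 82 of 150 pairs.

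Mouse numbers fall into blocks that run with age. The mice of 12 and 26 months are numbers 1 to 15, those of 3, 15, 18 and 21 months are 16 to 56, and those of 28 months are 57 to 59. Whether a block was handled apart is not stated in the labels. Differences from 3 months at 12, 26 and 28 months therefore lie between blocks, and those at 15, 18 and 21 months within 1 block. In the former, and in the ratios of 28 to 3 months, age and block cannot be told apart. Within mice 16 to 56, 91 of 145 pairs tested rose, where 4.23% of all gene and region pairs did. Within the males of mice 1 to 15, which compares 12 with 26 months only, 22 of 140 rose, where 0.217% of all pairs did.

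The sexes were compared at the 5 ages that both have. With age as a factor, 10 of 147 pairs tested differed, where 3.01% of all gene and region pairs did, and all 10 were higher in females. In choroid plexus these were B2m, H2-D1, H2-K1, Psmb8 and Nlrc5. B2m averaged 140 ± 42.6 CPM (SD, n = 24) in females and 110 ± 24.6 CPM (SD, n = 25) in males there, a difference of -0.33 log2 for male minus female (SE 0.050, adjusted p = 1.48e-05). Psmb8 averaged 8.77 ± 3.18 CPM (SD, n = 24) and 7.13 ± 2.59 CPM (SD, n = 25), a difference of -0.35 (SE 0.068, adjusted p = 0.00158). The share of all genes that differed was 1.10% in choroid plexus.

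Of the other 5, B2m, H2-D1, Tap2 and Psmb9 differed in medulla and B2m in anterior hippocampus. In medulla 24.6% of all genes differed between the sexes, so 4 of 10 there is read against that share, and in anterior hippocampus 0.552% did. Tap2 averaged 16.4 ± 3.99 CPM (SD, n = 24) in females and 13.7 ± 1.65 CPM (SD, n = 26) in males of the medulla. In the 12-month mice alone 0 pairs passed, and the share over all genes in that fit is not given here. The age slope did not pass a test of difference between the sexes in any of the 147 pairs, where 0.0694% of all pairs did; 6 of the 147 had an unadjusted p under 0.05, and DESeq2 also called 0.

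The 10 genes varied together to different degrees. Over the 105 means of region and age, each gene centred within its region so that its course with age is compared, Pearson's r with B2m was 0.964 for H2-K1, 0.956 for H2-D1, 0.939 for Psmb8, 0.877 for Nlrc5 and 0.854 for Tap1, but 0.532 for Psmb10. These points share regions and mice, and no p is given. The search for the most similar genes outside the 10 covered 11951 genes that averaged 5 CPM or more. Those most like B2m were Lgals3bp (0.944), Ctss (0.938), Lyz2 (0.928), Lgals9 (0.927) and C4b (0.922). Those most like H2-D1 were Ifit3 (0.907), C4b (0.903), Ifit1 (0.903), Ifitm3 (0.902) and Lgals3bp (0.902). For Tap1 they were Lgals9 (0.867), Ifit3 (0.866), Oasl2 (0.849), Lgals3bp (0.847) and Ifit1 (0.841). For Psmb8 they were C4b (0.925), Ctss (0.923), Lyz2 (0.921), Lgals3bp (0.918) and Tspo (0.909). For Nlrc5 they were Ifit1 (0.851), Lgals3bp (0.844), Lgals9 (0.843), Lyz2 (0.842) and Ifitm3 (0.842). Ctss encodes a lysosomal protease of myeloid cells, C4b a complement component, and Ifit1 and Ifit3 interferon-induced proteins. Lgals3bp was among the 5 closest genes of all 5 presentation genes examined.

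A list of 31 other genes of the pathway held constitutive subunits, proteasome activators, chaperones, interferon signalling and promoter-binding factors. Of its 465 gene and region pairs, 71 rose and 32 fell (median slope 0.00102), where 6.37% of all pairs rose and 5.10% fell. The largest mean slopes over regions included those of the transcription factors Irf8 (0.0357 log2 per month) and Irf9 (0.0256), which rose in 12 and 8 regions. The smallest were those of Nfya (-0.00709), a subunit of the factor that binds the Y box, the chaperone Calr (-0.00688) and Ciita (-0.00653), the activator of class II genes related to Nlrc5. Calr fell in 9 regions, Nfya in 1 and Ciita in 0.

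Other genes of that list are named by role, a choice made after their values were seen. Calr and Pdia3 sit with Tapbp in the loading complex, and Pdia3 fell in 7 regions while Tapbp rose in 8. The tapasin relative Tapbpl rose in 6 regions and the trimming enzyme Erap1 in 5. Of the proteasome activators, Psme1 rose in 7 regions, Psme2 in 1 and Psme3 in 0. The constitutive subunits Psmb6 and Psmb7 rose in 1 and 0 regions, and Psmb5 fell in 2. Of the interferon receptor chains, Ifngr1 rose in 7 regions and Ifnar2 in 5, while Ifngr2 fell in 3.

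Markers of other cells moved with age too, and their part in these results was not tested. Of 12 microglia markers over the regions, 113 of 180 pairs rose and 3 fell. Of 12 interferon response genes, 117 of 178 rose and 0 fell. Over all genes, 6.37% of pairs rose and 5.10% fell. In corpus callosum 9 of 12 microglia markers rose, and their sum was 476 to 572 CPM at 3 months and 718 to 982 CPM at 28 months. All 12 interferon genes rose there, with sums of 31.7 to 116 CPM and 98.7 to 411 CPM. Of 6 astrocyte markers 4 rose in corpus callosum, with sums of 2031 to 2348 CPM at 3 months and 3097 to 3730 CPM at 28 months. Of 6 oligodendrocyte markers 2 rose, with sums of 16873 to 23228 CPM and 21645 to 29009 CPM. In motor cortex 1 microglia marker rose and 1 fell, and the sums overlapped (384 to 450 CPM and 390 to 494 CPM), while 8 of the 10 presentation genes and 6 of 12 interferon genes rose. Of 8 T-cell markers, Cd3d, Cd3g, Cd8a and Cd8b1 had a median of 0 over the corpus callosum libraries of all ages. At 28 months their medians were 0.298, 0.673, 0.404 and 0.135 CPM, and that of Cd3e was 0.673 CPM, against 0 for all 5 at 3 months. These 5 are near the floor, and 28 months had 3 libraries. Trbc2 had medians of 9.21 CPM at 3 months and 9.82 CPM at 28 months, and Lck 1.26 and 1.79 CPM. The 8-gene sum was 72.1 to 112 CPM at 3 months and 41.9 to 83.7 CPM at 28 months, and 0 of the 3 tested passed. Cd4 held most of that sum (medians 75.1 and 64.5 CPM). In cerebellum, hippocampus, medulla and pons Cd4 had a median of 0, and the source of its reads was not tested.

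Of 28 T-cell marker pairs tested over all regions, 2 rose, where 6.37% of all gene and region pairs rose and 5.10% fell. The counts that follow are read against those shares. For 8 endothelial markers 6 of 120 pairs rose and 2 fell. For 6 astrocyte markers 19 of 90 rose and 8 fell (median slope 0.000507), and 12 of the 19 rises were those of Gfap alone. For 6 oligodendrocyte markers 8 of 90 rose, and for 7 neuronal markers 4 of 105 rose and 11 fell. Choroid plexus epithelial markers had 8 of 90 pairs that rose and 3 that fell, and granulocyte markers 16 of 60 and 2. In corpus callosum 0 of the 8 epithelial markers passed, with sums of 6.2 to 15299 CPM at 3 months and 10.4 to 10310 CPM at 28 months.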

How the data were processed

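Bulk mRNA-seq of 15 brain regions of 59 mice gave 847 libraries of 481444 to 26756735 reads (median 6716032). Per the labels' protocols, RNA was isolated with RNeasy from homogenized tissue, cDNA was made by Smart-Seq2, and unstranded libraries were made with Nextera XT. The submitters' processing notes name Trim Galore 0.3.7, STAR 2.5.3a, DESeq2 and the build GRCm38; the counting program and annotation are not given in the sources used here. The deposited values are whole-number read counts per gene, not normalized by the authors. Reads carry no molecular identifiers, so the spread between mice, not counting error, was used.

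Region, sex, age and mouse number came from the labels. Each region was fitted alone with edgeR 4.0.16 (glmQLFit, TMM factors, filterByExpr on sex and age) in R 4.3.3, with Benjamini-Hochberg adjustment over all genes of the region and a threshold of 0.05. Models were the slope on age beside sex, age as a factor, sex, and age by sex up to 21 months. A joint fit tested the 14 terms of region by age. CPM printed are counts scaled to the library total, without TMM factors. Ratios and regional levels used log2 CPM with a prior count of 2 and 100000 permutations, whose smallest p is 1e-05 before adjustment. The all-gene share beside the regional levels covers the listed genes and those averaging 5 CPM or more. Tests are 2-sided. The scripts were tested on simulated data. Alternatives used DESeq2 1.42.0, limma 3.58.1, RLE factors, no low-count filter, subsets of mice and libraries, and 12 mice left out in turn. Gene positions and overlaps are from GENCODE M21 and promoters from RefSeq. Python 3.11.15 with numpy 2.4.6, pandas 2.3.3, scipy 1.17.1 and matplotlib 3.10.9 was used.

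The 10 genes and the gene lists were chosen with earlier results of these data known. Named are the 10 genes, the 3 largest and 3 smallest mean slopes of the pathway list, and the 5 genes most like each of B2m, H2-D1, Tap1, Psmb8 and Nlrc5; others are said to be chosen after their values were seen. The result of 1 gene that this rule names is not reported here. The same mouse number marks the same animal in every region. Deviations from the group means in 2 regions of 1 mouse had a median correlation of 0.0364 over 5687 pairs (22.5% over 0.1), against -0.00869 over 22735 pairs of different mice (10.3% over 0.1).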

Additional observations from a re-analysis of the deposited data

Results flagged for a closer look

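In 60 groups of 4 to 10 libraries (10 genes in corpus callosum, choroid plexus and olfactory bulb at 3 and 26 months), the highest or lowest library was checked for a gap to the rest by Dixon's criterion, which chance meets in about 1 in 20 groups. The olfactory bulb of mouse 33 (male, 3 months, 3964144 reads) was far above the other 9 for B2m (408.7 CPM), H2-D1 (291.6), H2-K1 (197.3), Tap1 (32.04), Tap2 (33.30), Psmb8 (58.78), Psmb9 (20.18) and Nlrc5 (13.87). Of the groups of corpus callosum at 3 months, H2-D1 had a high library in mouse 37 (105.1 CPM) and Tap2 in mouse 33 (10.88 CPM). Psmb8 in choroid plexus at 3 months had a high library in mouse 37 (7.434 CPM), and Nlrc5 in olfactory bulb at 26 months in mouse 2 (3.901 CPM).

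The age slope differed between regions for 9 genes, by the F test of 14 terms: B2m 11.03, H2-D1 9.362, Psmb8 6.769, H2-K1 5.461, Psmb9 4.905, Tap1 4.657, Nlrc5 3.814, Tap2 3.350 and Tapbp 2.627.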

How the results depend on the processing

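The count of 104 pairs that rose with age was 91 to 109 with males alone, with mice 16 to 56 alone, with DESeq2, RLE factors, no low-count filter or the library total as a covariate, and without low-depth, deviating or the high olfactory bulb libraries. It was 60 with females alone, which were at most 21 months old, and 22 with the males of mice 1 to 15, of 12 and 26 months only. Both subsets also have fewer libraries, and what lowered the counts was not tested. For the females the share over all genes and regions is not given here. In those males Psmb9 (-0.016), Tap1 (-0.0022) and Tap2 (-0.0075) in hypothalamus and Tap2 in pons (-0.011) had slopes below 0, and the cause was not tested. Without the olfactory bulb library of mouse 33, Psmb8 there had a slope of 0.0204 in place of one below 0. With males alone, which have fewer libraries, 1, 7, 15 and 43 pairs were above 3 months at 12, 15, 18 and 21 months. With 12-month mice alone 0 pairs differed between the sexes. Neither result is set against a share over all genes. Without the olfactory bulb 5 genes differed in slope between regions. With the replicate block (mouse as a term) in the joint fit over all regions the same 9 genes did as without it. Over all genes 3587 passed with that block and 3417 without. The other fits were not run with it.

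Leaving out 12 mice in turn gave 102 to 106 pairs that rose, 7 to 10, 25 to 30, 51 to 63, 87 to 97, 77 to 80 and 70 to 84 pairs above 3 months at the 6 later ages, 7 to 11 pairs that differed between the sexes, 0 to 0 age by sex terms, 28 to 31 ratios, 119 to 122 regional levels, and 6 to 8 genes with slopes that differed between regions (limma-voom). Leaving out each olfactory bulb library gave 0 to 5 genes that rose there. Of single values, 6073 kept their direction and side of the threshold, 261 lost the call, 74 moved, 44 gained a call and 5 turned. Few mice of 26 and 28 months, no females of those ages, and low counts of Nlrc5, Psmb9 and Tap1 limit the precision.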

Other observations

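Corpus callosum had another high library, that of mouse 26, a male of 15 months. It was the highest of the 10 libraries of that age for 8 of the 10 genes, among them Psmb8 (24.5 CPM, next highest 10.5, median 8.70), Nlrc5 (6.16 CPM, next 2.00, median 0.982), Tap1 (10.4 CPM, next 5.61) and B2m (189 CPM, next 129). For Tap2 and Tapbp the highest was the library of mouse 22, with 14.9 and 57.6 CPM.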
